A study of Mus musculus with 51 samples.

Results

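40 named genes of skeletal muscle (sarcomere, calcium handling, muscle energy supply and muscle regulators) were followed through 21 RNA-seq libraries of mouse femur, a tissue in which muscle fibres are not a resident cell type. The genes were chosen by name, and all 40 were found among the 23358 entries of the VitC femur files and among the 25938 genes of the Tet femur table. In the VitC femurs, 36 of the 40 passed the filter on low values, whereas Myh2, Myh7, Tnni1 and Ttn had an RPKM of at least 1 in only 1 or 2 of the 9 libraries and were not tested. In the Tet femurs all 40 were tested.

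The VitC femurs came from 20 week old C57BL/6 mice in 3 groups of 3 libraries. These were wild type mice (WT), Gulotm1Mae knockout mice kept on VitC at 3.3 g/L in the drinking water for 20 weeks (VitC+), and Gulotm1Mae mice given this water for 15 weeks and then none for 5 weeks (VitC+/-), so VitC+ and VitC+/- share the Gulo knockout, which removes VitC synthesis. The Tet femurs came from 11 week old C57BL/6 mice in 4 groups of 3 libraries, with Prrx1-Cre alone (Ctrl) or with floxed Tet1 (Tet1 cKO), floxed Tet2 (Tet2 cKO) or both (Tet1/2 cKO), so every group carries the Cre. Prrx1-Cre acts in limb mesenchyme, the source of bone and connective tissue cells. RNA was taken, per the methods, from minced femurs after flushing. Peak lists of 5-hydroxymethylcytosine (5hmC) came from VitC+, VitC+/-, Ctrl and Tet1/2 cKO femurs. Lists of 5hmC, H3K27me3 and H3K9me3 came from the calvarial osteoblast line MC3T3-E1, cultured with VitC or without it. The labels of the 5hmC libraries and the methods for the histone marks give different culture times. The 5hmC and histone lists of these cells may thus not be from the same stage. How far muscle was stripped from the femurs is not given in the sources used here.

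A muscle fibre contracts when calcium leaves the sarcoplasmic reticulum and binds troponin on the actin filament, so that myosin can pull on actin. Fast and slow fibres use different genes for the same parts: fast fibres carry Myh1, Myh2 or Myh4 as myosin heavy chain with Tnni2, Tnnc2 and Tnnt3 as troponins, and slow fibres carry Myh7 with Tnni1, Tnnc1 and Tnnt1. Because these genes are expressed at very high levels in fibres, a small amount of muscle on a bone gives a large signal in bulk RNA.

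As examples of regulatory sequence of the listed genes, the 250 bases before the transcription start are printed for Ckm, Acta1, Myh4 and Tnni1. They lie at chr7:19410844-19411093 on the plus strand for Ckm (muscle creatine kinase) and at chr8:123894776-123895025 on the minus strand for Acta1 (skeletal actin). For Myh4 (fast myosin) they lie at chr11:67237562-67237811 and for Tnni1 (slow troponin I) at chr1:135799171-135799420, both on the plus strand. Sequences are from RefSeq on GRCm38.p6, the build of the files (mm10), read 5′ to 3′ on the strand of the gene. Capitals mark, on either strand, CAGCTG (an E-box of the kind bound by MyoD), GGAATG (a TEAD motif, which reads CATTCC on the other strand), TATAAA, the CArG box and the MEF2 site.
Ckm: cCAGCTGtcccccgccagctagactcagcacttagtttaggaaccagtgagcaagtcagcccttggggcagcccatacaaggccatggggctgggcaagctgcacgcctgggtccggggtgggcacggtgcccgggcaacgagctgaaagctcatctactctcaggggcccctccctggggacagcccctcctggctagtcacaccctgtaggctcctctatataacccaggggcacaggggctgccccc
Acta1: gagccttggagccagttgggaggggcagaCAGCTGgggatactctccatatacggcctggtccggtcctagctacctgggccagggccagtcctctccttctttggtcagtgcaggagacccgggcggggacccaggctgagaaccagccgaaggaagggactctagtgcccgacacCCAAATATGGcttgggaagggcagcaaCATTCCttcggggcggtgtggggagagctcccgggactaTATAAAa
Myh4: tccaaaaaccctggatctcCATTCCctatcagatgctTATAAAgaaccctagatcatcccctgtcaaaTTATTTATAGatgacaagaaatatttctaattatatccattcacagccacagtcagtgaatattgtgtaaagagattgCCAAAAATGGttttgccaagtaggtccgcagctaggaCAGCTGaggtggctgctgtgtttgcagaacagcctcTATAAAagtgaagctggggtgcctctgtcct
Tnni1: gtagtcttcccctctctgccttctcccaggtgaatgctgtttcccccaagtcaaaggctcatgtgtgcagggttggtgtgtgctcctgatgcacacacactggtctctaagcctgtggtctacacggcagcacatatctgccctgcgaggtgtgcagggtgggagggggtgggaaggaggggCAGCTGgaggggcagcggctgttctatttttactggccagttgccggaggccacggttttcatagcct

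Of the 40 members, 31 matched a RefSeq promoter, with 37 promoters in all. CAGCTG lay in 19 of these 37, compared to 13.0% of all 32851 promoters. Counted by gene it was 17 of 31, compared to 14.7% of 27025 genes. A further promoter of Tnni1, at chr1:135799261-135799510, overlaps the printed stretch and holds the same CAGCTG. At least 1 E-box of the general form CANNTG, which includes CAGCTG, lay in 32 of 37 and in 66.2% of all promoters. GGAATG lay in 10, TATAAA in 8, the MEF2 site in 5 and the CArG box in 3 of the 37, and in 12.6, 12.4, 2.92 and 1.47% of all promoters. The printed promoters of Ckm and Tnni1 each hold 1 CAGCTG and none of the other 4 marked motifs, while those of Acta1 and Myh4 hold all of them except that Acta1 has no MEF2 site. A match of letters is a description and not a site.

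The depth was estimated from the RPKM steps as 7.5 M reads in WT replicate 1 and 31.1 to 47.4 M in the other 8 VitC libraries, and whole reads recovered from the Tet table gave 28.6 to 49.8 M. Gulo, the gene inactivated in VitC+ and VitC+/-, was listed at 0 RPKM in the library labelled WT replicate 3, against 0.522 and 0.486 in the other WT libraries, and at 0.180 in VitC+ replicate 1 against 0.0126 to 0.0352 in the other 5 knockout libraries. Normalized counts of Tet1 were 374, 420 and 435 in Ctrl and 532 to 773 in Tet1 cKO, and those of Tet2 were 2236, 2512 and 2251 in Ctrl and 1834 to 2245 in Tet2 cKO. In Tet1/2 cKO they were 485, 415 and 442 for Tet1 and 2970, 1851 and 2351 for Tet2. Whole gene counts include exons outside the floxed part, so they do not check these labels. Results that rest on 1 library are given below with that library left out.

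The summed level of the 40 genes varied far more within groups than between them. As a share of the RPKM of all genes it was 0.158, 0.0103 and 0.317% in WT, 0.0354, 0.629 and 0.0360% in VitC+ and 0.463, 0.0218 and 0.0225% in VitC+/-, in order of replicate number. Each of the 3 groups held at least 1 library with a high share and at least 1 with a low share. The highest library of a group exceeded its lowest 30.4-fold in WT, 24.96-fold in VitC+ and 21.2-fold in VitC+/- by summed RPKM. In bulk tissue, fewer cells of a type and less RNA per cell cannot be told apart.

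**Figure D1:**
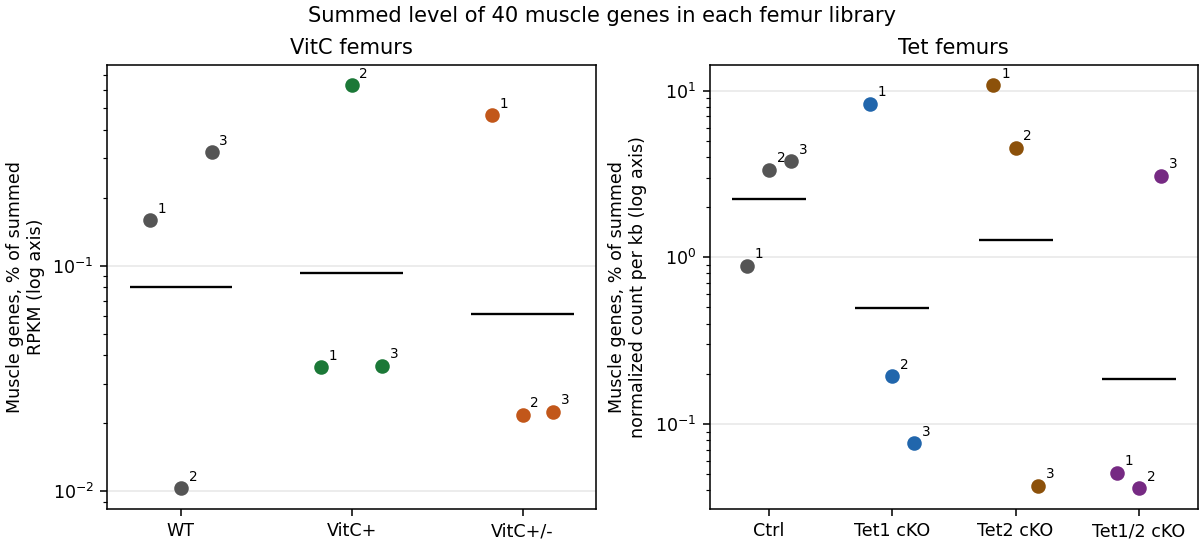
Share of the summed level of all genes held by the 40 muscle genes in each library, on log axes, for the 9 VitC femur libraries (left, RPKM) and the 12 Tet femur libraries (right, normalized count per kb). Points are libraries, digits are replicate numbers and bars are geometric means of 3 libraries, and in each panel the ranges of all groups overlap.

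Among the Tet femurs the spread was larger still. Per length, the share was 0.887, 3.34 and 3.76% in Ctrl, 8.31, 0.193 and 0.0764% in Tet1 cKO, 10.8, 4.55 and 0.0425% in Tet2 cKO and 0.0506, 0.0410 and 3.09% in Tet1/2 cKO. Ctrl libraries differed up to 4.10-fold, whereas the ratio of highest to lowest summed level was 114 in Tet1 cKO, 261 in Tet2 cKO and 68.4 in Tet1/2 cKO. Of the 9 cKO libraries 5 lay under 0.2%, and of the 3 Ctrl libraries 0 did, but each cKO group also held a library within or above the Ctrl range. The line at 0.2% was not planned beforehand, and the difference was not tested. The highest share was 10.8% in the Tet femurs and 0.629% in the VitC femurs, which rest on separately normalized tables of different units.

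Acta1, the actin of the skeletal thin filament, had 44.4, 0.690 and 102 RPKM in WT, 5.15, 171 and 5.21 in VitC+ and 119, 1.14 and 0.645 in VitC+/-. Its normalized count per kb in the Tet femurs was 8871, 38440.5 and 41259.5 in Ctrl, 84539.8, 2148 and 533 in Tet1 cKO, 155295, 69679.7 and 126 in Tet2 cKO and 561, 215 and 35578 in Tet1/2 cKO. VitC+ replicate 2 and VitC+/- replicate 1 were highest among the VitC libraries, WT replicate 3 came next, and every pair of groups overlapped. The log2 fold change of Acta1 was -1.64 (standard error 2.18, limma adjusted p = 0.649) in VitC+/- against VitC+, -1.58 (2.18, 0.611) against WT and -0.06 (2.18, 0.990) for WT against VitC+. Against Ctrl it was -2.39 (2.74, 1.00) in Tet1 cKO, -1.12 (2.74, 1.00) in Tet2 cKO and -3.89 (2.74, 0.723) in Tet1/2 cKO, so the standard error exceeded the change in 5 of the 6 comparisons.

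Ckm, the enzyme that buffers ATP in fibres, had 35.3, 0.519 and 88.8 RPKM in WT, 1.67, 144 and 4.03 in VitC+ and 46.9, 1.88 and 0.475 in VitC+/-. Its normalized count per kb was 4084, 17543 and 20334 in Ctrl, 41104, 915 and 308 in Tet1 cKO, 72577, 37639.7 and 103 in Tet2 cKO and 193, 91.9 and 16945 in Tet1/2 cKO. The same 4 VitC libraries were highest for Ckm as for Acta1, and the groups overlapped.

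Among the myosins, Myh4, the heavy chain of the fastest fibres, had 4.89, 0.0516 and 32.5 RPKM in WT, 0.107, 66.2 and 1.36 in VitC+ and 7.05, 0.484 and 0.0943 in VitC+/-. Its normalized count per kb was 4316, 11589 and 23298 in Ctrl, 59637, 830.4 and 437 in Tet1 cKO, 61352, 30104 and 154 in Tet2 cKO and 114, 22.2 and 22022 in Tet1/2 cKO. VitC+ replicate 2 and WT replicate 3 stood above the other VitC libraries for this gene. Myh1, another fast heavy chain, had 5.39, 0.0469 and 2.79 RPKM in WT, 0.232, 4.62 and 0.155 in VitC+ and 6.96, 0.117 and 0.0105 in VitC+/-. Per kb it had 1984, 9441 and 5734 in Ctrl, 9385, 441 and 12.7 in Tet1 cKO, 26802, 6155 and 6.07 in Tet2 cKO and 109, 76.9 and 4332 in Tet1/2 cKO. Myh1 was thus spread over WT replicate 1, VitC+ replicate 2 and VitC+/- replicate 1 at similar levels.

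Myh2, the heavy chain of fast oxidative fibres, had 1.73, 0.00928 and 0.216 RPKM in WT, 0.0719, 0.450 and 0.274 in VitC+ and 11.4, 0.0211 and 0.0104 in VitC+/-. Its normalized count per kb was 347, 3842 and 1288 in Ctrl, 7301, 112 and 12.55 in Tet1 cKO, 10953, 3883 and 6.02 in Tet2 cKO and 74.5, 27.01 and 2267 in Tet1/2 cKO. VitC+/- replicate 1 was highest for Myh2 among the VitC femurs. Myh7, the slow heavy chain, had 0.260, 0.0466 and 0.0417 RPKM in WT, 0.00482, 0.0834 and 0.0183 in VitC+ and 18.5, 0.0106 and 0.0104 in VitC+/-. The Tet femurs had, per kb, 2.68, 1.502 and 27.2 per kb in Ctrl, 219, 28.8 and 0 in Tet1 cKO, 16.8, 571 and 0.580 in Tet2 cKO and 23.0, 0 and 402 in Tet1/2 cKO. Only VitC+/- replicate 1 reached an RPKM of 1 for Myh7. In the transcripts of the 4 genes, 18.6 to 26.7% of windows of 50 bases are also found in another of the 7 myosin heavy chains compared, so their split is uncertain where reads fell on these windows.

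The myosin light chains differed by fibre type too. Mylpf, the fast regulatory light chain, had 27.3, 3.81 and 146 RPKM in WT, 5.98, 277 and 6.88 in VitC+ and 43.9, 2.88 and 2.73 in VitC+/-. Per kb it had 9713, 37000.5 and 41744 in Ctrl, 96718, 1797 and 587 in Tet1 cKO, 112740.0, 63651 and 428 in Tet2 cKO and 688, 604 and 40385 in Tet1/2 cKO. The same 4 VitC libraries were highest for Mylpf as for Acta1. Myl2, the slow and cardiac regulatory light chain, had 12.03, 0.535 and 1.08 RPKM in WT, 7.55, 1.85 and 0.667 in VitC+ and 111, 0.961 and 0.232 in VitC+/-. Its normalized count per kb was 23.3, 683 and 93.4 in Ctrl, 1792, 107 and 18.7 in Tet1 cKO, 487, 2819 and 3.9002 in Tet2 cKO and 40.8, 16.5 and 858 in Tet1/2 cKO. VitC+ replicate 2, the highest library for Mylpf, had less Myl2 than VitC+ replicate 1.

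The troponins come as fast and slow pairs. Tnni2, fast troponin I, had 61.0, 2.54 and 148 RPKM in WT, 7.04, 277 and 14.3 in VitC+ and 119, 6.43 and 2.62 in VitC+/-, and Tnni1, its slow counterpart, had 0.943, 0.152 and 0.136 in WT, 0.209, 0 and 0.140 in VitC+ and 22.0, 0.0287 and 0.189 in VitC+/-. VitC+ replicate 2 thus had the highest Tnni2 of all 9 libraries with Tnni1 listed at 0. Tnni2 had 14702, 40990.3 and 51542 per kb in Ctrl, 103181, 2364 and 971 in Tet1 cKO, 127247, 67933 and 502 in Tet2 cKO and 618, 594 and 39439.6 in Tet1/2 cKO. Tnni1 had 11.4, 9.73 and 47.9 per kb in Ctrl, 461, 79.4 and 1.80 in Tet1 cKO, 77.7, 2360.1 and 4.11 in Tet2 cKO and 69.9, 12.3 and 528 in Tet1/2 cKO. Tet2 cKO replicate 1 was highest for Tnni2, and Tet2 cKO replicate 2 for Tnni1.

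Tnnc2, fast troponin C, had 73.6, 1.02 and 147 RPKM in WT, 6.49, 275 and 8.83 in VitC+ and 97.5, 3.75 and 1.34 in VitC+/-. Per kb it had 14802, 56085 and 66147 in Ctrl, 133219, 2519 and 937 in Tet1 cKO, 155282, 76027 and 473 in Tet2 cKO and 903, 508 and 48870.3 in Tet1/2 cKO. The 9 VitC libraries had the same order for Tnnc2 as for Tnni2. Tnnc1, the slow and cardiac troponin C, had 9.71, 1.29 and 1.76 RPKM in WT, 2.82, 1.78 and 1.96 in VitC+ and 78.4, 3.05 and 3.08 in VitC+/-. The Tet femurs had, per kb, 35.2, 92.0 and 146 in Ctrl, 1012, 179.9 and 48.7 in Tet1 cKO, 127, 3837 and 64.8 in Tet2 cKO and 179, 41.2 and 1102 in Tet1/2 cKO. Tnnc1 never fell below 1.29 RPKM, and 7 of the 9 VitC libraries lay within 1.29 to 3.08.

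Of the giant and Z-disc proteins, Ttn (titin, the spring of the sarcomere) had 0.183, 0.0225 and 0.720 RPKM in WT, 0.0355, 1.55 and 0.0866 in VitC+ and 2.28, 0.0433 and 0.0296 in VitC+/-. Per kb it had 115, 585 and 472 in Ctrl, 1736, 26.01 and 6.83 in Tet1 cKO, 1910.4, 585 and 4.39 in Tet2 cKO and 10.9, 4.89 and 559 in Tet1/2 cKO. Des (desmin, an intermediate filament that smooth muscle also makes) had 12.3, 0.867 and 15.5 RPKM in WT, 1.97, 30.5 and 3.60 in VitC+ and 79.1, 1.24 and 0.460 in VitC+/-. Both genes were highest in VitC+/- replicate 1, followed by VitC+ replicate 2. Des had 1359.9, 4406 and 4970.0 per kb in Ctrl, 10352, 351 and 146 in Tet1 cKO, 12194, 6701 and 106 in Tet2 cKO and 78.2, 88.4 and 3510.3 in Tet1/2 cKO.

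Tpm2 (beta tropomyosin, which fibroblasts and smooth muscle make too) had 41.1, 5.81 and 27.2 RPKM in WT, 19.2, 37.2 and 22.1 in VitC+ and 79.3, 9.11 and 39.6 in VitC+/-. Per kb it had 2615, 9598 and 7126 in Ctrl, 17052, 1072 and 554 in Tet1 cKO, 26603, 11814 and 615 in Tet2 cKO and 478, 694 and 6678 in Tet1/2 cKO. Its range over the VitC libraries was narrower than that of Acta1, with VitC+/- replicate 3 at the low end for Acta1 and among the 3 highest for Tpm2. Trim63 (MuRF1, a ubiquitin ligase of muscle wasting) had 0.557, 0.0299 and 1.67 RPKM in WT, 0.0155, 2.01 and 0.177 in VitC+ and 9.37, 0.458 and 0.0334 in VitC+/-. Its normalized count per kb was 152, 960.3 and 606 in Ctrl, 1761, 46.3 and 9.10 in Tet1 cKO, 1288, 2033 and 3.32 in Tet2 cKO and 1.73, 3.45 and 576 in Tet1/2 cKO. The groups of each experiment overlapped for both genes.

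**Figure D2:**
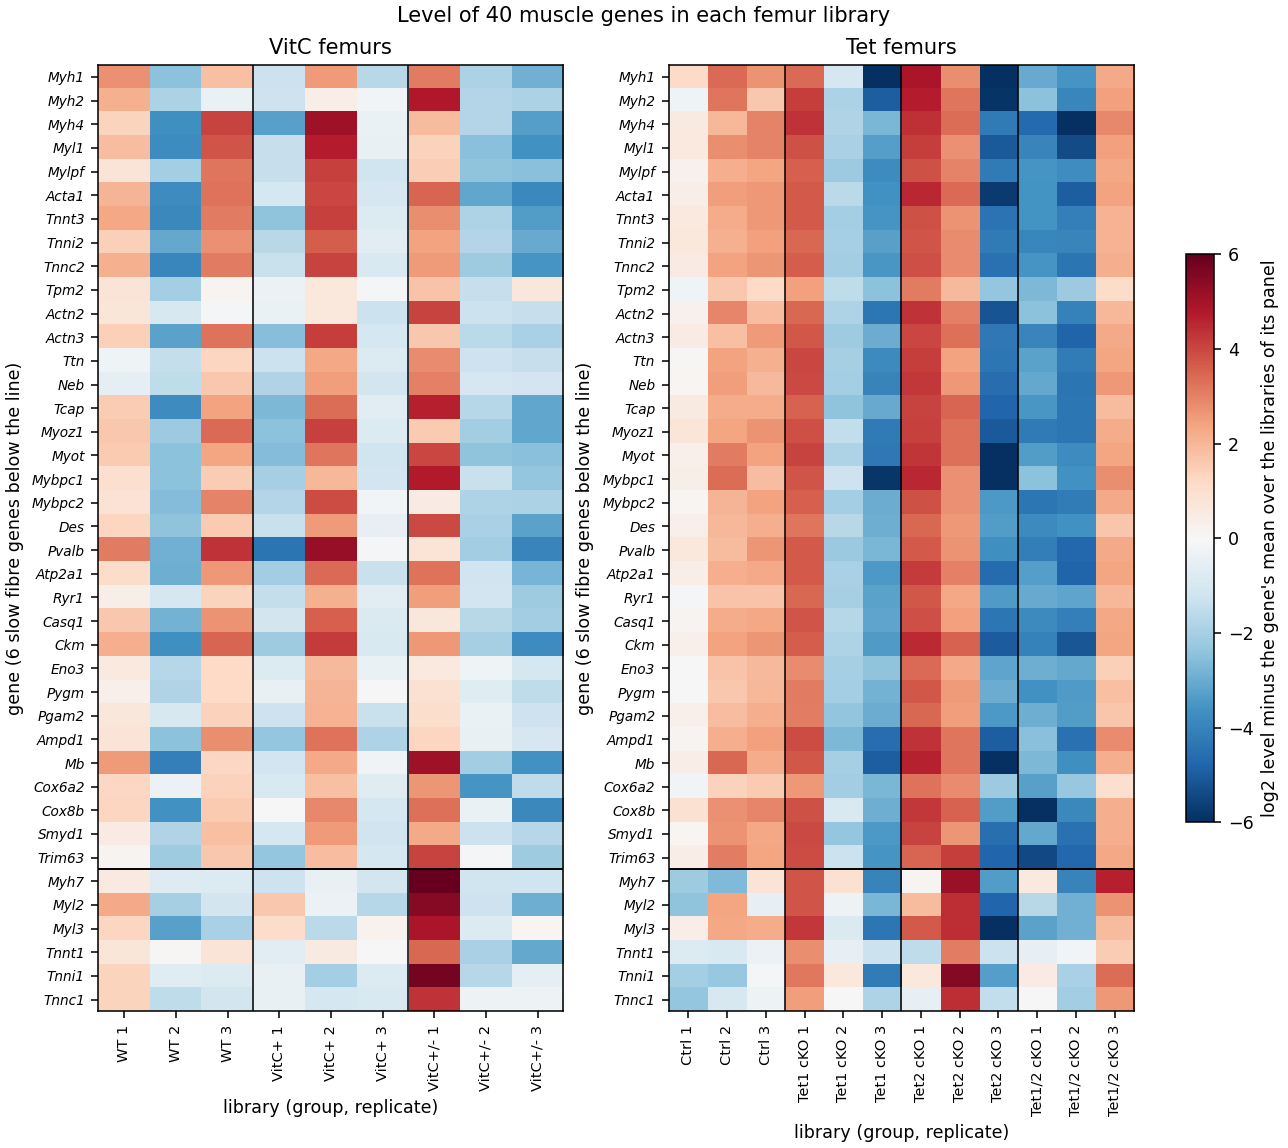
Log2 level of the 40 genes in each library, minus the mean of the gene over its panel (colour, limits -6 and 6), after adding 0.1 to RPKM (left) or 1 to the normalized count per kb (right). Most genes turn red and blue in the same columns, and the 6 slow fibre genes under the line depart from them in VitC+/- replicate 1, VitC+ replicate 2, Tet2 cKO replicate 1 and Tet2 cKO replicate 2.

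Across libraries the genes moved as a block. The log2 level of each gene was correlated with the log2 sum of the other 39, over 9 VitC or 12 Tet libraries that share depth and scaling, as a description. The median Pearson r was 0.934 in the VitC femurs, with 23 of 40 genes above 0.9, and 0.993 in the Tet femurs, with 35 above 0.9. Tnni2, Acta1 and Ckm had the highest r in the VitC femurs (0.986, 0.985 and 0.984) and Tnnc2, Tnnt3 and Tnni2 in the Tet femurs (each 0.999). The lowest r belonged to Myl3 (0.312), Tnnc1 (0.407) and Tnni1 (0.416) in the VitC femurs and to Tnnt1 (0.466), Tnnc1 (0.565) and Tnni1 (0.614) in the Tet femurs, all genes of slow fibres. The highest value of a gene fell in VitC+/- replicate 1 for 21 genes and in VitC+ replicate 2 for the other 19. For the Tet femurs it fell in Tet2 cKO replicate 1 for 32 genes, Tet2 cKO replicate 2 for 7 and Tet1 cKO replicate 1 for 1.

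Fast and slow fibre genes were present in different proportions in the libraries with a high summed muscle level. The 6 slow genes made up 39.9% of the summed RPKM of 12 fast and 6 slow genes in VitC+/- replicate 1, but 0.781% in VitC+ replicate 2, 1.56% in WT replicate 3 and 9.01% in WT replicate 1. Among the RPKM of Myh1, Myh2, Myh4 and Myh7, Myh7 held 42.1% in VitC+/- replicate 1 and Myh4 held 92.8% in VitC+ replicate 2 and 91.4% in WT replicate 3. WT replicate 1 was led by Myh1 with 43.9%. Libraries with a low summed muscle level had slow shares of 15.9 to 46.3%. Their summed slow levels were only 5.17 to 16.9 RPKM, which come largely from Tnnc1, Tnnt1 and Myl2. The slow share in the Tet femurs lay between 0.398% in Tet2 cKO replicate 1 and 12.9% in Tet1/2 cKO replicate 2, and the summed slow level was highest in Tet2 cKO replicate 2, with 18539 normalized counts per kb against 3954 in Tet2 cKO replicate 1. These are scores over the listed genes and were not tested.

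**Figure D3:**
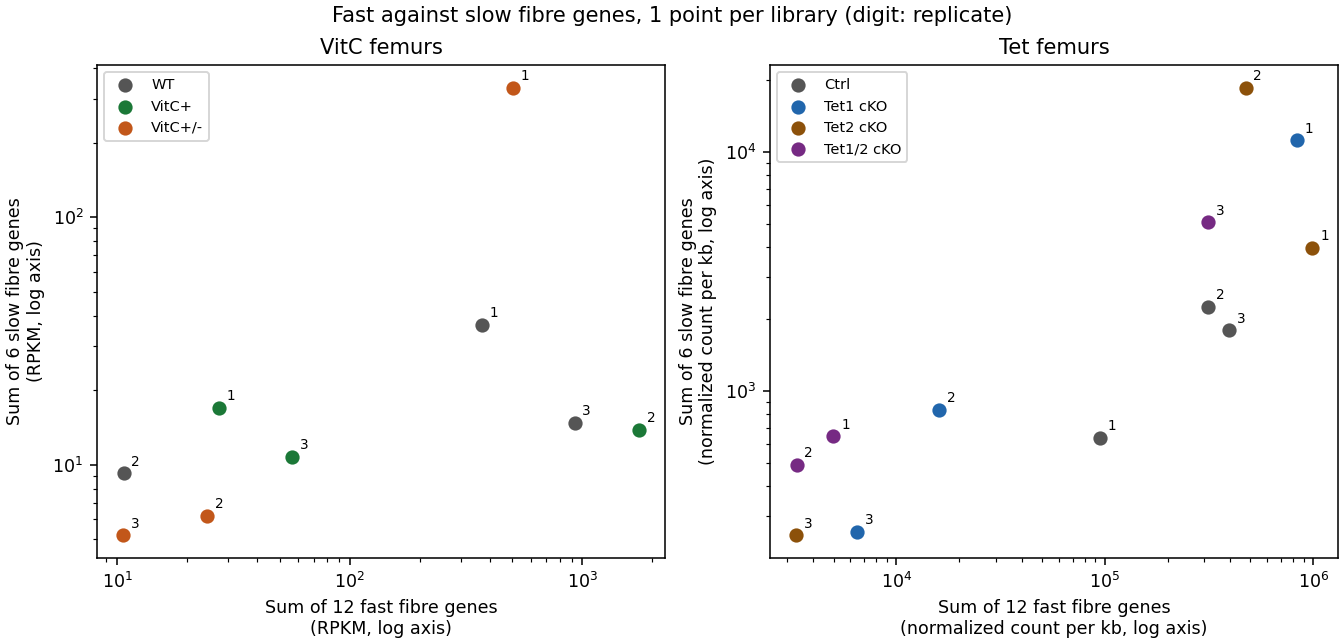
Summed level of 12 fast against 6 slow fibre genes in each library on log axes, in RPKM for the VitC femurs (left) and normalized count per kb for the Tet femurs (right), with digits for replicate numbers. VitC+/- replicate 1 has the highest slow sum of the VitC femurs (333 RPKM) at a fast sum of 501 RPKM, and VitC+ replicate 2 the highest fast sum (1756 RPKM) at a slow sum of 13.8 RPKM.

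With VitC withdrawal, none of the 36 listed muscle genes tested passed, although many other genes did. In VitC+/- against VitC+, 0 of 36 muscle genes had a limma adjusted p under 0.05, where 13.4% of the 12586 genes tested were called. Against WT it was 0 of 36, with 31.3% called over all genes, and in WT against VitC+ it was 0 of 36, with 0% called. By limma, 0 of the 36 had an unadjusted p under 0.05 in any of the 3 comparisons, compared to 31.3, 43.8 and 22% of all genes, and 0 were without overlap between groups, compared to 40.5, 42.7 and 28.7% of all genes. The 3 comparisons share libraries. The median log2 fold change of the 36 genes was -0.45 in VitC+/- against VitC+ (all genes 0.02), with 27 negative, and ranged from -2.29 for Myl1 to 1.80 for Tnnc1. Against WT the median was -0.54 (all genes 0.01), with 28 negative, from -3.07 for Pvalb to 1.77 for Myl3. In WT against VitC+ it was 0.09 (all genes 0.04), with 15 negative.

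These medians turned on single libraries. Without VitC+ replicate 2, the median of VitC+/- against VitC+ was 0.47, and without VitC+/- replicate 1 it was -2.13. Without VitC+/- replicate 1, Tnnt1, the slow troponin T, passed as lower, with a log2 fold change of -2.24 against VitC+ (limma adjusted p = 0.0179) and -2.68 against WT (limma adjusted p = 0.00398), and Cox6a2, a subunit of cytochrome oxidase in muscle, passed against WT with -2.84 (limma adjusted p = 0.0451). These are 1 of 30 muscle genes tested against VitC+, where 3.92% of all genes were called without that library, and 2 of 30 against WT, where 19.3% were. Tnnt1 had 11.4, 7.19 and 11.5 RPKM in WT, 4.37, 9.90 and 6.97 in VitC+, and 75.4, 1.71 and 0.720 in VitC+/-. The last pair lay below the other 7 libraries. With all libraries its log2 fold change was -0.40 against VitC+ (limma adjusted p = 0.855).

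None of the 40 listed muscle genes passed in the Tet femurs either. Against the same 3 Ctrl libraries, 0 of 40 genes were called by limma in Tet1 cKO (0.0119% of 16780 genes called), 0 in Tet2 cKO (0.0119%) and 0 in Tet1/2 cKO (0%). The number with an unadjusted p under 0.05 was 0 by limma in each comparison, compared to 2.28, 2.19 and 5.05% of all genes. On recovered reads of 11 libraries, edgeR and DESeq2 called 0 of the 40 in each, where edgeR called 0, 0.00595 and 0% of all genes in Tet1 cKO, Tet2 cKO and Tet1/2 cKO and DESeq2 0.0774, 0.0893 and 0.0655%. The muscle genes with an unadjusted p under 0.05 were 0 in Tet1 cKO, 2 in Tet2 cKO and 0 in Tet1/2 cKO by either tool, compared to 1.61, 1.77 and 3.98% of all genes by edgeR and 2.6, 2.88 and 6.31% by DESeq2. No gene was without overlap between groups, compared to 7.82, 5.97 and 17.4% of all genes. By limma, the median log2 fold change was -2.22 in Tet1 cKO with 35 genes negative, -0.78 in Tet2 cKO with 33 negative and -3.41 in Tet1/2 cKO with 36 negative, beside -0.01 for all genes in each. The lowest single values were -3.66 and -2.24 for Myh1 in Tet1 cKO and Tet2 cKO and -5.36 for Cox8b in Tet1/2 cKO, with limma adjusted p-values of at least 0.723 for all genes of the list.

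The medians of Tet1 cKO and Tet2 cKO had the opposite sign on recovered reads, and that of Tet1/2 cKO kept its sign. By edgeR the median log2 fold change was 0.70 in Tet1 cKO, 1.00 in Tet2 cKO and -1.29 in Tet1/2 cKO, and by DESeq2 it was 0.74, 1.05 and -1.28. Both of these fits leave out Tet1 cKO replicate 3, a library with a low summed muscle level. Without that library limma gave -0.73 in Tet1 cKO. The edgeR and DESeq2 fits also differ from limma in the model, and the cause of the change of sign was not tested. By limma with 1 library of the knockout group left out, the median lay between -4.34 (without replicate 1) and -0.73 in Tet1 cKO and between -5.39 (without replicate 3) and -2.25 (without replicate 2) in Tet1/2 cKO. Without Tet2 cKO replicate 3, the library lowest in Acta1, limma gave 1.85 in Tet2 cKO. For Acta1 in Tet2 cKO the arithmetic mean of normalized counts was higher than in Ctrl, 117878 ± 122103 (SD, n = 3) against 46382 ± 28186 (SD, n = 3), while the log2 fold change was negative.

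**Figure D4:**
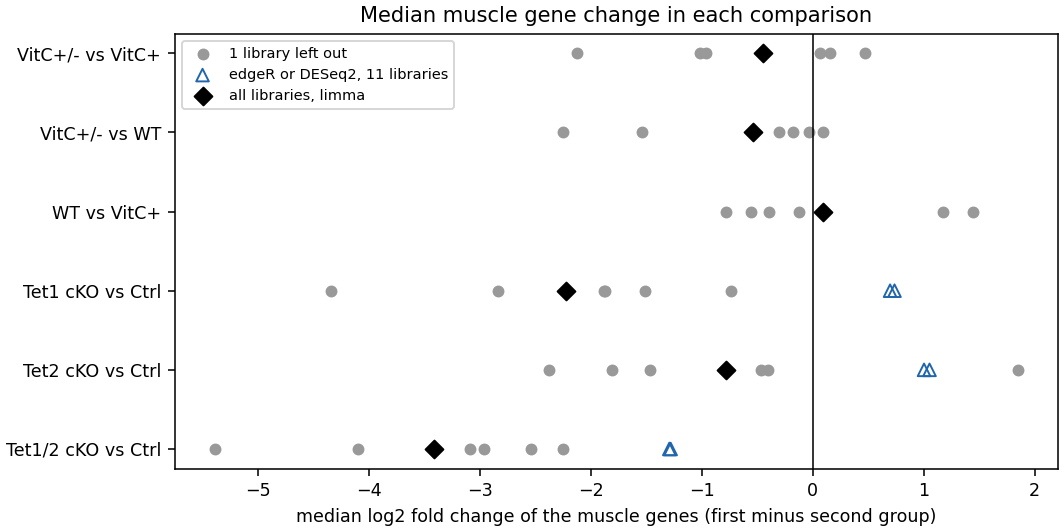
Median log2 fold change of the muscle genes in the 6 comparisons, with all libraries by limma (diamonds), with 1 library left out (grey points) and by edgeR and DESeq2 on 11 libraries (triangles, Tet femurs only). In VitC+/- against VitC+, VitC+/- against WT, WT against VitC+ and Tet2 cKO against Ctrl the grey points lie on both sides of 0.

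Group explained little of the variance of the muscle genes. The share of the sum of squares of log2 values that lay between groups had a median of 6.06% over the 36 muscle genes and 53.9% over all genes tested in the VitC femurs, and of 17.3% over 40 muscle genes and 29.8% over all genes in the Tet femurs. For the log2 summed level it was 2.37% and 19.1%. With so few libraries a share of this kind is positive even where groups do not differ. That level was not computed here, so the shares of all genes are not a measure of group effect alone. The muscle genes moved as a block, so their medians do not rest on independent genes. The median SD within groups was 2.01 on the log2 scale for the muscle genes against 0.261 for all genes in the VitC femurs, and 3.59 against 0.422 in the Tet femurs. Of all genes, 22 of 12586 (0.175%) and 71 of 16780 (0.423%) had a larger SD within groups than the median muscle gene. All genes include the muscle genes, so those above their own median are part of these counts by definition.

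Many other skeletal muscle genes followed the 40, more of them in the Tet than in the VitC femurs. Of the genes outside the list, 28 of 12550 in the VitC femurs (0.223%) and 312 of 16740 in the Tet femurs (1.86%) had an r above 0.9 with the log2 summed muscle level. The 10 nearest genes in the VitC femurs were Hfe2, Ldb3, Rtn2, Asb11, Rpl3l, Trdn, Jsrp1, Tmem38a, Xirp2 and Fitm1, with r from 0.993 to 0.977 over 9 libraries. The nearest in the Tet femurs included Ldb3, Hjv, 3425401B19Rik, Myom2, Cacna1s, Phkg1, Trim54, Ankrd23 and Lrtm1, with r from 0.999 to 0.994 over 12 libraries. Hfe2 is an older symbol of Hjv (hemojuvelin), so this gene and Ldb3, a Z-disc protein, are named in both. Of 32 further skeletal muscle genes listed for this purpose, 10 of 22 tested had an r above 0.9 in the VitC femurs and 30 of 32 in the Tet femurs.

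Ankrd2, Fbxo32, Cdh15 and Mybpc3, genes associated with skeletal or cardiac muscle outside the 40, passed the test in the VitC femurs. Among the 32 further skeletal genes, 1 of 22 tested was called in VitC+/- against VitC+ and 2 against WT. All were higher, where 13.4 and 31.3% of all genes were called. Of 9 cardiac genes 2 were tested, and 1, Mybpc3, was called higher in both comparisons, by 1.18 and 1.14 on the log2 scale. Ankrd2, a stretch-responsive ankyrin repeat protein, had 1.31, 0.821 and 0.597 RPKM in WT, 1.88, 1.38 and 2.54 in VitC+ and 29.3, 4.74 and 7.64 in VitC+/-. All VitC+/- libraries thus lay above all others, including the 2 with a low summed muscle level. The log2 fold change of Ankrd2 was 2.07 against VitC+ (standard error 0.56, limma adjusted p = 0.0399) and 2.93 against WT (0.56, limma adjusted p = 0.00508). Against VitC+, leaving out VitC+ replicate 1, 2 or 3 or VitC+/- replicate 1 or 3 gave a limma adjusted p of 0.0840, 0.129, 0.0937, 0.0656 and 0.0569, and against WT it stayed under 0.05 with each library left out.

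Fbxo32 (atrogin-1, a ubiquitin ligase of muscle wasting like Trim63) had 1.55, 1.05 and 1.13 RPKM in WT, 2.13, 2.41 and 2.70 in VitC+ and 6.11, 4.29 and 2.46 in VitC+/-. It rose against WT by 1.35 on the log2 scale (standard error 0.29, limma adjusted p = 0.00818) and had 0.54 against VitC+ (limma adjusted p = 0.237). Cdh15 (M-cadherin of muscle precursor cells) was the only 1 of 12 regulators of muscle formation to pass the filter, with 10.4, 7.69 and 13.5 RPKM in VitC+ and 4.14, 2.04 and 2.57 in VitC+/-. Cdh15 fell in VitC+/- by 1.82 on the log2 scale (standard error 0.33, limma adjusted p = 0.0109). It had 5.36, 3.30 and 2.68 RPKM in WT, with a log2 fold change of -0.36 in VitC+/- against WT (limma adjusted p = 0.436) and -1.46 in WT against VitC+ (limma adjusted p = 0.0836). Of 12 osteoblast and osteocyte genes 6 were lower in VitC+/- against VitC+, where 13.4% of all genes were called. Against WT 3 were lower and 1 higher, where 31.3% of all genes were called. Their summed level was 1167 to 3901 RPKM in WT, 5902 to 10938 in VitC+ and 744 to 4704 in VitC+/-. The part of these genes in the Cdh15 result was not tested.

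In the VitC femurs, the log2 sum of 8 smooth muscle genes had an r of -0.0633 with the log2 summed muscle level, that of 8 tendon genes 0.0430, of 12 osteoblast and osteocyte genes 0.155 and of 10 adipocyte genes -0.337. In the Tet femurs these values were 0.615, 0.415, -0.179 and 0.680, over 12 libraries. The adipocyte sum lay between 5085 and 39926 normalized counts per kb there, with the 3 Ctrl libraries between 13424 and 16240. For the further skeletal genes r was 0.930 in the VitC and 0.993 in the Tet femurs. Other muscle lists followed less closely. In the VitC and Tet femurs r was 0.264 and 0.780 for the regulators of muscle formation. For the cardiac genes it was 0.283 and 0.574, and for Myh3, Myh8, Actc1 and Myl4, genes of developing muscle, 0.715 and 0.785.

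Peak lists gave a readout of the same loci from DNA and not from RNA. The femur DNA came, per the methods, from decalcified femurs, and how much muscle it held is not given in the sources used here. Each list is 1 per group with no replicates, so no test was made, and a gene was extended by 3 kb on each side. In Ctrl femurs 35 of 40 muscle genes held a 5hmC peak, compared to 79.5% of 22229 genes, and in Tet1/2 cKO femurs 32 of 40, compared to 67.4%. Covered length was lower in Tet1/2 cKO than in Ctrl for 34 of 40 muscle genes and higher for 1, where 78.0% of all genes were lower and 1.95% higher, and summed over the muscle genes it was 0.448 of the Ctrl length, against 0.466 for all genes. Both shares lie close to the background. In VitC+/- against VitC+ femurs, 18 of 40 were lower and 12 higher, compared to 52.1 and 31.3% of all genes, and the ratio was 0.914 against 0.882. Acta1 had no 5hmC peak in any of the 6 lists. Mb (myoglobin) had 14772 covered bases in Ctrl and 7376 in Tet1/2 cKO.

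In MC3T3-E1 osteoblasts, H3K27me3, a mark of silenced developmental genes, covered a median of 18.8% of the window of a muscle gene without VitC and 8.25% with VitC, and most of its peaks there had low q scores. Without VitC, 33 of 40 held an H3K27me3 peak, compared to 37.2% of all genes, and with VitC 24 of 40, compared to 33.6%. Covered length was lower with VitC for 30 of 40 and higher for 1, where 33.2% of all genes were lower and 6.04% higher. Most genes had no peak in either list, and among those whose coverage differed, 96.8% of 31 muscle genes and 84.6% of all genes were lower. The summed length was 0.579 of that without VitC, against 0.640 for all genes. Smyd1, a methyltransferase of muscle differentiation, had 23303 covered bases with VitC and 28914 without, Tnni1 6905 and 17568, and Ckm 0 and 5681.

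With only peaks of a -log10 q of at least 5, 3 of 40 genes held an H3K27me3 peak without VitC and 0 with VitC, compared to 2.41 and 0.427% of all genes. Then 3 of 40 were lower for H3K27me3 and 0 for H3K9me3, where 2.32 and 1.05% of all genes were lower. H3K9me3 peaks lay on 4 genes with VitC and 13 without, compared to 22.0 and 28.0% of all genes, with 11 lower and 2 higher where 22.9% of all genes were lower and 7.95% higher. The summed H3K9me3 length went the other way, 21050 bases with VitC and 19609 without, a ratio of 1.07 against 0.707 for all genes. MC3T3-E1 5hmC coverage was lower with VitC for 19 of 40 and higher for 18, where 31.8% of all genes were lower and 58.4% higher.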

How the data were processed

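The members and the gene lists were chosen with earlier results of these data known. VitC femur reads were mapped by the authors (STAR 2.6.0b-1, mm10), and RPKM values per gene were deposited for each library. The methods name cufflinks for FPKM, without saying which program made these RPKM columns. For the Tet femurs the authors counted reads with featureCounts 1.6.3 and deposited a signal of counts divided by DESeq2 size factors. For peaks, the authors mapped reads with BWA 0.7.15.1 and deposited MACS2 fold enrichment ratios, -log10 q values and, for MC3T3-E1 5hmC, the pileup signal. The 5hmC peaks were called on pooled samples per the methods, while names inside the histone lists hold a single replicate.

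RPKM values were divided by median-of-ratios factors and tested as log2(RPKM + 0.5) where 3 or more of the 9 libraries reached an RPKM of 1. Normalized counts were tested as log2(count + 1) for genes with at least 10 in at least 3 of 12 libraries. Both used limma 3.58.1 (trend) with all libraries of an experiment and Benjamini-Hochberg adjustment at 0.05. Whole reads were recovered (100% of values whole within 0.01) and tested with edgeR 4.0.16 and DESeq2 1.42.0, without Tet1 cKO replicate 3, whose divisor is too close to 1 to tell its values from rounded ones. Of the table columns 0 were left unmapped. Levels are RPKM as deposited or normalized counts per kb of RefSeq exon length, and sums and correlations use these. The methods describe the femur libraries as biological triplicates. Values in every library are given for 16 genes named by role and fibre type, for a member past the threshold, and the 3 highest and lowest correlations with the muscle sum and the 10 nearest other genes are named, except 1 in the Tet femurs that is not reported here. Myl1, Pvalb, Cox8b, Tnnt1, Cox6a2, Mb, Smyd1, Ankrd2, Fbxo32, Cdh15 and Mybpc3 were named after their values were seen. Each fit was first tested on simulated data. Alternatives changed scaling, pseudocount, filter, block, test, libraries, peak threshold, window and overlap. Computations used R 4.3.3 and Python 3.11.15.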

Additional observations from a re-analysis of the deposited data

How the results depend on the processing

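None of the listed muscle genes was called in 50 of 51 alternative fits other than those leaving out 1 library. The exception was the replicate block, with 1 muscle gene called in VitC+/- against WT, Myl3 with a log2 fold change of 1.77 and a limma adjusted p of 0.0419 (0.291 without the block). Whether replicate numbers pair the samples was not settled. Between libraries of the same number, r of deviations lay between -0.19 and 0.46 over 9 VitC pairs, 4 of them over 0.1. Over 18 Tet pairs it lay between -0.57 and 0.53, 6 of them over 0.1. The block called 774 genes over the whole table in WT against VitC+ instead of 0.

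Leaving out 1 library gave 0 to 1 muscle genes called in VitC+/- against VitC+, 0 to 2 against WT and 0 in the other 4 comparisons. For Acta1 it gave log2 fold changes of -1.35 to 1.93 in WT against VitC+ and -3.02 to 2.11 in Tet2 cKO. Acta1 also changed sign with pseudocount 1 in WT against VitC+ (0.046), with the muscle covariate chosen after seeing the data in Tet1 cKO (0.13) and Tet1/2 cKO (0.046), by edgeR in Tet1 cKO (0.51) and Tet2 cKO (1.29) and by DESeq2 (0.55 and 1.34). The median over muscle genes moved to 0.70 by edgeR and 0.74 by DESeq2 in Tet1 cKO and to 0.052 with the covariate in Tet1/2 cKO. The covariate is the sum of these same genes, so it brings their values towards 0 by construction. For edgeR and DESeq2, which also leave out Tet1 cKO replicate 3, and for the pseudocount the cause was not tested. With a -log10 q of at least 5, 3 instead of 30 muscle genes were lower for H3K27me3 and 0 instead of 11 for H3K9me3.

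Over the whole table, limma called 1692 genes in VitC+/- against VitC+, 487 to 1306 with 1 library left out and 876 without scaling. Against WT it called 3934, and 2274 to 4113 with 1 left out. In WT against VitC+ it called 604 without WT replicate 1. In the Tet femurs limma called 2, 2 and 0 genes, edgeR 0, 1 and 0, and DESeq2 13, 15 and 11. The median standard error of the muscle genes was 1.32 (VitC) and 2.49 (Tet) on the log2 scale, and a change of -5.36 for Cox8b in Tet1/2 cKO (standard error 2.60) did not pass (limma adjusted p = 0.723).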

Other observations

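With the log2 summed muscle level of each library as a covariate, an alternative chosen after seeing the data, limma called 1160 genes over the whole table in VitC+/- against VitC+ instead of 1692, and 3451 against WT instead of 3934. In the Tet femurs the counts stayed at 2, 2 and 0 in Tet1 cKO, Tet2 cKO and Tet1/2 cKO.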
